A study of Mus musculus with 6 samples.

Results

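Sap30l encodes a SAP30-like subunit of the Sin3 histone deacetylase complex, and it is described here with 9 other genes of that complex: its paralogue Sap30, Sap18, the scaffolds Sin3a and Sin3b, the deacetylases Hdac1 and Hdac2, the histone readers Ing1 and Ing2, and Suds3. The 10 genes were found by symbol among 35591 rows of an expression table, and all 10 passed the filter on low values that left 13617 autosomal genes for testing. Sap30l was picked on these same libraries, because its 3 mutant values lay above its 3 wild-type values, so its difference between genotypes is given as a description and carries no test. The other 9 genes were chosen for their place in the complex, with earlier results of these data known.

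The libraries were made from polyA RNA of single mouse embryos of the FVB/NJ strain at embryonic day 8.5, each with 8 somites. The dissected tissue was the tailbud, which holds the presomitic mesoderm that later forms the vertebral column. The 3 WT embryos were Smchd1 +/+, and the 3 MommeD43 embryos were homozygous (Smchd1MommeD43/MommeD43) for a missense allele induced by chemical mutagenesis. The SMCHD1 protein acts on chromatin, where it takes part in X inactivation and silences gene clusters, and the comparison asks which transcripts differ when the tailbud carries the missense protein. Each group held 1 male, numbered replicate 1, and 2 females, numbered 2 and 3. The WT and MommeD43 males had the same mother and each female had another, so litter and genotype could not be separated among the females.

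The Sin3 complex removes acetyl groups from histone tails and is best known as a corepressor, brought to genes by DNA-binding proteins such as the MAD family and REST. A Sin3 scaffold protein holds the deacetylases HDAC1 and HDAC2, the SAP30 proteins and SUDS3 help to hold the enzymes on the scaffold, and ING1 and ING2 read methylated histone tails. The catalytic pair is shared with the NuRD and CoREST complexes, whereas SAP30, SAP30L and the scaffolds belong to Sin3.

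Library totals, inferred from the deposited level of genes without a read, ranged from 10957916 to 47298348 reads. Of 16 tailbud and presomitic mesoderm markers, 16 were at 1 RPKM (reads divided by exon length and by library total) or more on average, and their summed level was 1002 to 1344 RPKM in WT and 982 to 1239 RPKM in MommeD43. One label field names neural stem cells, but only 1 of 8 neural stem cell markers reached 1 RPKM on average. Hindgut endoderm markers summed to 351 to 466 RPKM in WT and 439 to 478 in MommeD43, and endothelial markers, of which 6 of 7 had higher means in MommeD43, to 24.0 to 41.9 and 34.1 to 44.7. Yolk sac and visceral endoderm genes summed to 146 to 292 RPKM in WT and 39.8 to 454 in MommeD43, and primitive blood genes to 8.94 to 486 and 22.8 to 220. Smchd1 itself was read at 7.31, 8.58 and 8.31 RPKM in WT and at 7.94, 7.66 and 7.15 in MommeD43, overlapping levels that say nothing about the label because the allele changes an amino acid.

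Sap30l lies on the forward strand of chromosome 11 at 57801637 to 57810217 (GRCm38), and its level was computed over 1151 bases of merged exons. The 250 bases before its annotated start, from RefSeq on GRCm38.p6, are shown because a noncoding gene, 2010001A14Rik, starts on the opposite strand only 219 bases away, within this window. The window before Sap30 is shown beside it as that of the closest paralogue. Capitals mark matches to the GC box letters GGGCGG and the CCAAT box letters CCAAT on either strand. The third motif searched, the E-box CACGTG, had no match in either window.
Sap30l (chr11:57801387-57801636, forward strand): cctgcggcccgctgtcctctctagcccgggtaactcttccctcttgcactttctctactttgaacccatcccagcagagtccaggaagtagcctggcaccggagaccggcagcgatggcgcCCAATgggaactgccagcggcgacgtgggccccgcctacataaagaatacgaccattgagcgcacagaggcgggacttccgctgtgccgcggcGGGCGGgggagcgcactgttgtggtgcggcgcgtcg
Sap30 (chr8:57487861-57488110, reverse strand): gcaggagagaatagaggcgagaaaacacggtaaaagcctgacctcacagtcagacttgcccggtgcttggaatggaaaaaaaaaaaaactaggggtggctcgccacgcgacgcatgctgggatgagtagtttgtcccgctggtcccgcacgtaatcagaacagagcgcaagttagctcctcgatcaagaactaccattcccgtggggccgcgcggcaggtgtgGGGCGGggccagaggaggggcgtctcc

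Both windows were rich in CpG dinucleotides, with 24 before Sap30l and 18 before Sap30 against a median of 6 over 32817 such windows. Each held 1 GC box, and the CCAAT letters occurred once before Sap30l, 129 bases ahead of its start, and not before Sap30. Promoter windows were found for 9 of the 10 genes (Hdac1 had none), with 14 windows in all, some of them overlapping windows of the same gene. A GC box was found in 13 of the 14 windows, CCAAT letters in 7 and the E-box in 0. Of all windows, 32.7%, 33.8% and 6.02% held these letters. Windows of the same gene are not independent, and by gene the counts were 8, 4 and 0 of the 9. No comparison was made with windows of like CpG content or genes of like level, so these counts are a description. A match describes the letters only and is no evidence that a factor binds.

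Sap30l was read at 14.1, 12.8 and 12.9 RPKM in the WT libraries and at 15.5, 16.8 and 18.3 RPKM in the MommeD43 libraries. All MommeD43 values lay above all WT values, with a gap of 0.14 on the log2 scale between the nearest ones, which were those of the males. The means were 13.2 ± 0.756 (SD, n = 3) in WT and 16.9 ± 1.36 (SD, n = 3) in MommeD43, a log2 difference of 0.35 or 1.27-fold. These values rest on 595, 347 and 246 reads in WT and on 196, 917 and 275 reads in MommeD43. At that depth the exact 95% counting interval of the MommeD43 male, 13.4 to 17.9 RPKM, overlapped that of the WT male, 13.0 to 15.3 RPKM, so the nearest values could not be separated by counting alone. The difference was 0.14 on the log2 scale in the males and 0.45 in the means of the females.

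The choice of Sap30l needs its background. Groups that did not overlap were found for 964 of the 13617 autosomal genes (7.08%), of which 481 were higher in MommeD43 (3.53%) and 483 lower (3.55%). With limma and Benjamini-Hochberg adjustment over all autosomal genes, 0 of 13617 passed an adjusted p of 0.05 (0%), and 327 had an unadjusted p under 0.05 (2.4%). As a bulk measurement of dissected tissue, the values could not separate fewer cells of a type from less RNA per cell. The yolk sac and visceral endoderm sum was lowest in the MommeD43 females (53.2 and 39.8 RPKM), which had the highest Sap30l levels, but it was highest in the MommeD43 male (454 RPKM), whose Sap30l level also lay above every WT library. The endothelial sum was 24.0 to 41.9 RPKM in WT and 34.1 to 44.7 in MommeD43. The part of these markers in the Sap30l values was not tested.

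**Figure D1:**
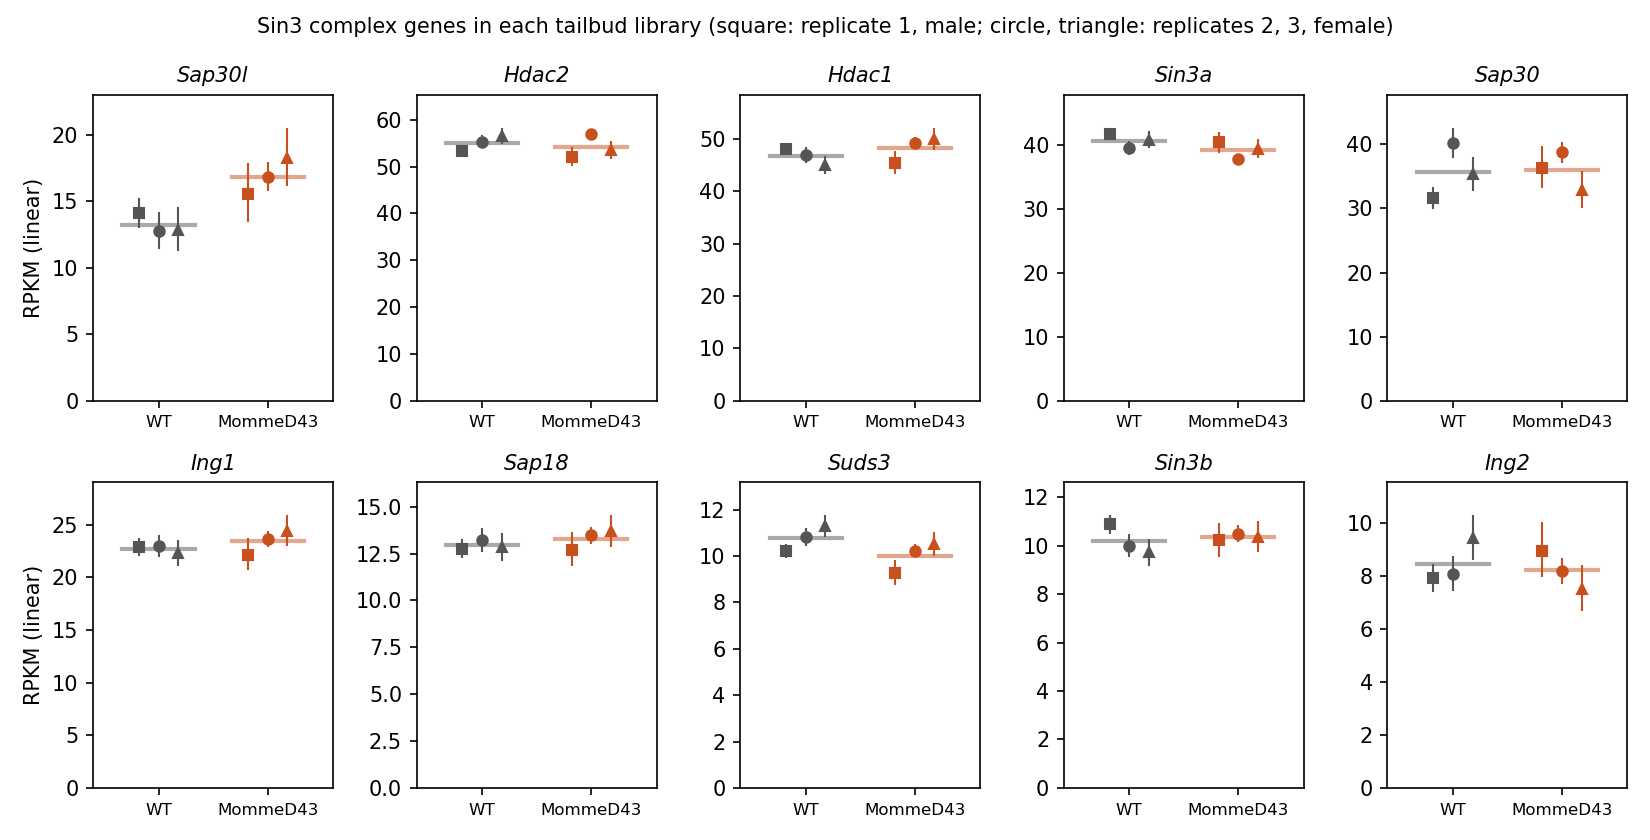
Level of each of the 10 genes in RPKM (linear axis from 0) in the 6 libraries, WT in grey and MommeD43 in orange. Thick lines are group means and thin bars exact 95% counting intervals. Only for Sap30l, which was picked for this, do all 3 MommeD43 points (15.5 to 18.3 RPKM) lie above all 3 WT points (12.8 to 14.1 RPKM). The same was found for 481 of the 13617 autosomal genes tested (3.53%), so the place of Sap30l here is no result about the complex.

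No difference was called for the 9 other genes: 0 of 9 passed an adjusted p of 0.05, 0 of 9 had an unadjusted p under 0.05, and 0 of 9 had groups that did not overlap. The adjusted p of each was 0.999. Their log2 differences ran from -0.11 for Suds3 to 0.05 for Hdac1, with 5 above 0 and 4 below and a median of 0.015, against a median of 0.0025 over all genes tested. In size these differences had a median of 0.043, against 0.078 over all genes tested. All 9 genes lie at or above the 60.5th percentile of level, and their differences were not compared with those of genes of like level. Leaving out 1 library moved the count of 9 with non-overlapping groups to 2 without WT replicate 1, 1 without WT replicate 2 and 4 without MommeD43 replicate 1, where 26.5%, 14.7% and 17.7% of all genes did so.

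Among the other SAP subunits, Sap30 varied more between embryos of the same genotype (pooled SD of log2 RPKM 0.150) than Sap18 (0.044). The median over all autosomal genes tested was 0.141. Sap30 was read at 31.6, 40.1 and 35.3 RPKM in WT and 36.3, 38.7 and 32.8 RPKM in MommeD43, and the ranges overlapped throughout. Its log2 difference was 0.02, with a 95% interval of -0.21 to 0.24, and its sign turned in 4 of 17 alternative settings. Sap18, which has a ubiquitin-like fold and also serves an RNA-processing complex, was read at 12.8, 13.2 and 12.8 RPKM in WT and 12.7, 13.5 and 13.7 RPKM in MommeD43. Its log2 difference was 0.04 (-0.10 to 0.18). Part of Sap18 (12.7% of its 75-base stretches) is shared with the copy Sap18b, so reads of both may have been exchanged. Sap18b was read at 21.4 ± 0.924 RPKM in WT and 24.0 ± 2.96 in MommeD43 (SD, n = 3), a log2 difference of 0.16 with an adjusted p of 0.999 by limma. Sap30l and Sap30 shared no 75-base stretch with each other or with any other gene, so this limit does not touch them.

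The scaffolds stayed within narrow ranges. Sin3a, the more abundant, was read at 41.8, 39.4 and 40.8 RPKM in WT and at 40.4, 37.8 and 39.4 RPKM in MommeD43, with a log2 difference of -0.05 (-0.17 to 0.07). Sin3b, its paralogue, was read at 10.9, 9.999 and 9.72 RPKM in WT and at 10.2, 10.5 and 10.4 RPKM in MommeD43, with a log2 difference of 0.02 (-0.14 to 0.18). For both the MommeD43 and WT ranges overlapped. Sin3a came nearest of the 9 to groups that do not overlap, its highest MommeD43 library exceeding its lowest WT library by 0.034 on the log2 scale, followed by Suds3 with 0.040.

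Suds3, which holds the deacetylases on the scaffold, had the lowest log2 difference of the 9. It was read at 10.2, 10.8 and 11.3 RPKM in WT and at 9.25, 10.2 and 10.5 RPKM in MommeD43, a log2 difference of -0.11 (-0.29 to 0.07). The MommeD43 male was the lowest of the 6 libraries, and the MommeD43 females fell within the WT range.

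The catalytic subunits were the most abundant of the 10 genes. Hdac2 was read at 53.4, 55.3 and 56.5 RPKM in WT and at 52.1, 56.9 and 53.5 RPKM in MommeD43, a log2 difference of -0.02 (-0.15 to 0.10). Hdac1 was read at 48.0, 46.9 and 45.0 RPKM in WT and at 45.4, 49.2 and 49.99 RPKM in MommeD43, a log2 difference of 0.05 (-0.08 to 0.18). As folds, the 95% intervals ran from 0.902 to 1.07 for Hdac2 and from 0.944 to 1.13 for Hdac1. Hdac1 shares 29.3% of its 75-base stretches with the copy Gm10093, so its level is less certain than that of Hdac2.

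The histone readers differed in how much they varied. Ing1 was read at 22.9, 23.0 and 22.3 RPKM in WT and at 22.1, 23.6 and 24.5 RPKM in MommeD43, a log2 difference of 0.04 (-0.09 to 0.18). Ing2, the least abundant of the 10, was read at 7.90, 8.06 and 9.41 RPKM in WT and at 8.95, 8.17 and 7.49 RPKM in MommeD43, a log2 difference of -0.04 (-0.27 to 0.19). Ing2 rests on as few as 296 reads in a library and has the widest interval of the 9.

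**Figure D2:**
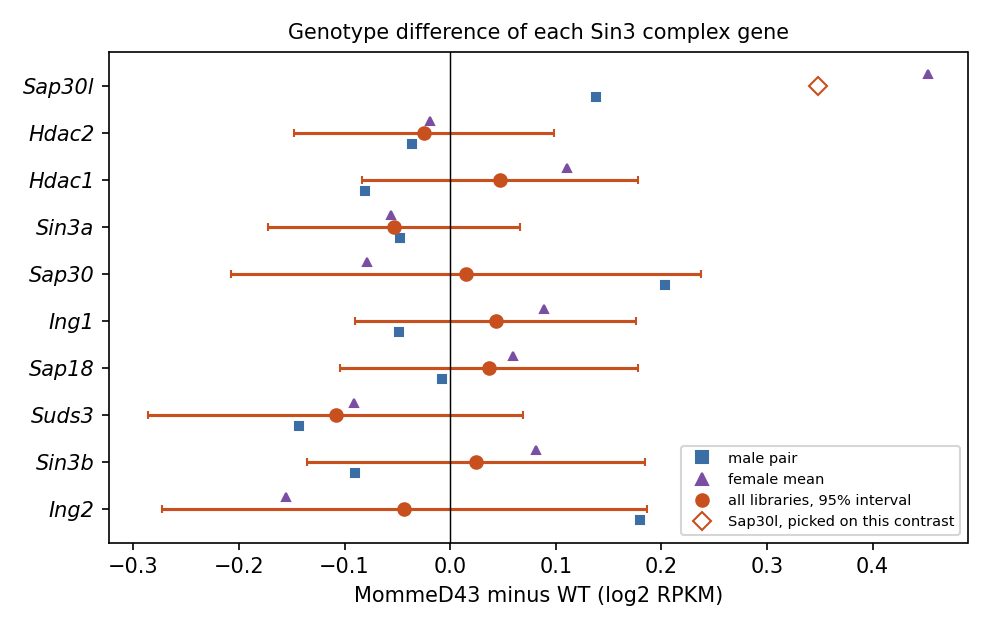
Difference between MommeD43 and WT (log2 RPKM) for each of the 10 genes. Filled circles carry 95% intervals from limma, all of which cross 0; the open diamond at 0.35 is Sap30l, shown without an interval because it was picked on this contrast, and squares and triangles give the male pair and the female means.

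The spread between libraries of a group (pooled SD of log2 RPKM) had a median of 0.062 over the 10 genes, against 0.141 over all autosomal genes tested. It was lowest for Sap18 (0.044) and Sin3a (0.045). Sap30 had the highest (0.150), at the 52.6th percentile of all genes, followed by Ing2 (0.133), and Sap30l had a spread of 0.1002. All 10 genes lie at or above the 60.5th percentile of level, and no comparison with genes of like level was made, so this is a description.

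In order of mean level over the 6 libraries, the genes stood at 54.6 RPKM for Hdac2, 47.4 for Hdac1, 39.9 for Sin3a, 35.8 for Sap30, 23.1 for Ing1, 15.1 for Sap30l, 13.1 for Sap18, 10.4 for Suds3, 10.3 for Sin3b and 8.33 for Ing2. Sap30l was thus above the level of 74.9% of the autosomal genes tested, and below its paralogue by more than the spread between libraries. Neighbours in this order kept their places in all 6 libraries, except Sin3a over Sap30 (4 of 6), Sap30l over Sap18 (5 of 6) and Suds3 over Sin3b (3 of 6). Sap30l passed below Sap18 in 1 WT library, replicate 2, where it was read at 12.8 against 13.2 RPKM. The order depends on the merged exon length by which reads were divided, which was 1151 bases for Sap30l and 11321 for Suds3.

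The 10 genes hold 4 pairs of paralogues, and the balance within each pair was compared. Sap30l made up 30.9%, 24.1% and 26.7% of the summed RPKM of Sap30l and Sap30 in WT, and 29.96%, 30.3% and 35.7% in MommeD43. The means were 27.2% ± 3.43 in WT and 32.0% ± 3.24 in MommeD43 (SD, n = 3). Unlike the level of Sap30l itself, this share overlapped between the groups, as Sap30 was lowest in the WT male. The share of Sin3a in the Sin3 pair was 80.0% ± 0.716 in WT and 79.1% ± 0.780 in MommeD43 (exact permutation p = 0.3 on the log2 ratio, two-sided, n = 3). Hdac1 made up 45.8% ± 1.51 of the deacetylase pair in WT and 47.1% ± 1.05 in MommeD43 (exact permutation p = 0.4, n = 3), and Ing1 made up 72.9% ± 2.24 of the ING pair in WT and 74.0% ± 2.68 in MommeD43 (exact permutation p = 0.6, n = 3). Each exact p was computed on the log2 ratio within the pair, not on the share. Adjusted over the 3 pairs tested, each exact p was 0.6, and 3 libraries against 3 cannot give a p under 0.1.

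**Figure D3:**
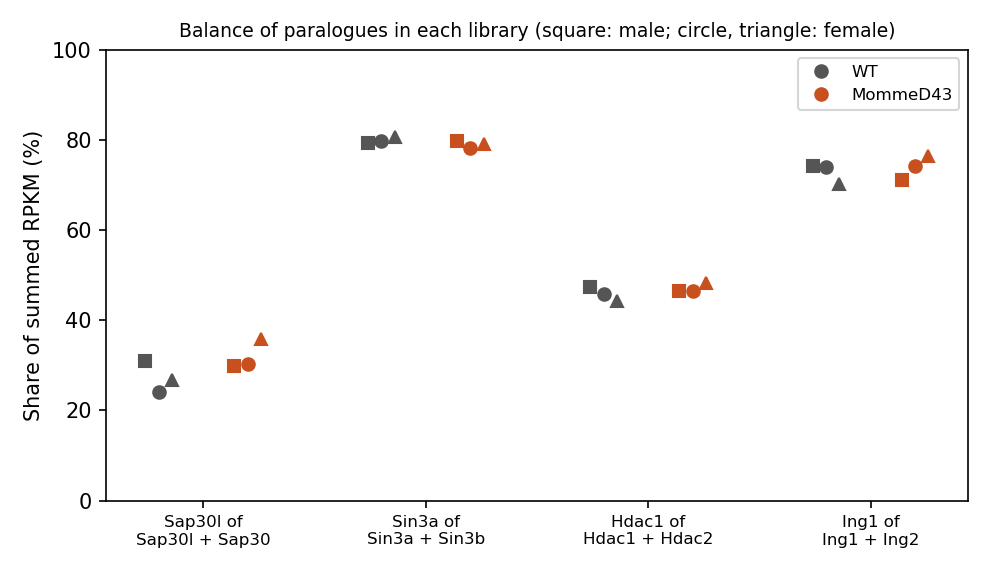
Share (%) of the first-named gene in the summed RPKM of each paralogue pair, by library (WT grey, MommeD43 orange, squares male). The Sap30l share runs from 24.1% to 30.9% in WT and from 29.96% to 35.7% in MommeD43, and the Sin3a, Hdac1 and Ing1 shares also overlap between groups.

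Because the sexes were unequal in number, the genotype difference was also compared between them. A difference between the sexes passed an adjusted p of 0.05 for 37 of the 13617 autosomal genes (0.272%) and an unadjusted p of 0.05 for 1471 (10.8%), but for 0 of the 9 genes at either level. The count of 37 was 0 without a mean-variance trend, 111 when every gene with a read was tested and 121 with voom on recovered reads. Of the 9 genes, Hdac1 came nearest to the unadjusted threshold, with a log2 difference of -0.08 in the males and 0.11 in the females. In Hdac1, Ing1, Sin3b and Sap18 both MommeD43 females lay above both WT females while the MommeD43 male lay below the WT male. This pattern, noticed after the values were seen, was present in 4 of the 9 genes and in 14.7% of all autosomal genes tested. Sap30 and Ing2 went the other way, with log2 differences of 0.20 and 0.18 in males and -0.08 and -0.16 in female means. Their female values overlapped, and 0 of the 9 genes had the mirror image of the pattern. The share of all genes with that mirror image was not counted, so the 4 and the 0 cannot be compared. With 1 male in each group, none of these values has a replicate among males.

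Sap30l was next compared with the genes around it. Within 300 kb, the tested genes were Fam114a2, Mfap3, Galnt10, 2010001A14Rik, Hand1, Larp1 and Cnot8, and none of them had groups that did not overlap or passed the test (each adjusted p 0.999, limma). 2010001A14Rik, the noncoding gene that starts within the window printed above, was read at 1.03, 1.13 and 1.01 RPKM in WT and at 1.15, 1.01 and 0.428 RPKM in MommeD43. Its log2 difference of -0.42 (95% interval -1.23 to 0.40) stood beside 1 low value, that of MommeD43 replicate 3, in which Sap30l was highest. In MommeD43 replicate 1 both 2010001A14Rik and Sap30l lay above every WT library. A relation between their levels was not tested. Hand1, a transcription factor of heart and extraembryonic mesoderm on the other side of Sap30l, had a log2 difference of 0.10 (-0.20 to 0.40). Those of Galnt10, an O-glycosylation enzyme, and of Cnot8, a deadenylase subunit, were both 0.06, and those of Fam114a2, Mfap3 and Larp1, an RNA-binding protein, were 0.04, 0.02 and 0.01.

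**Figure D4:**
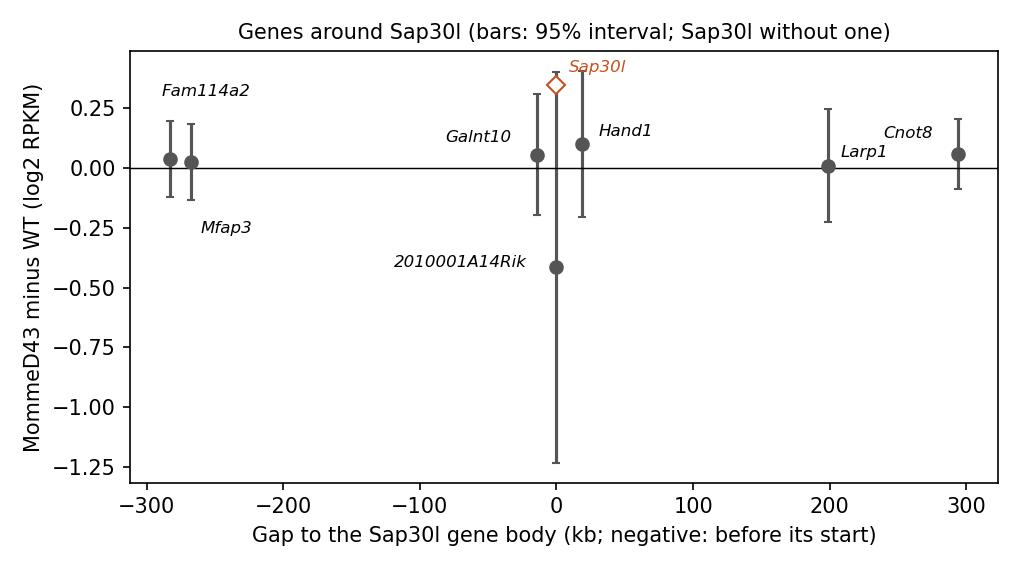
Difference between MommeD43 and WT (log2 RPKM) of the tested genes within 300 kb of Sap30l, against their gap to the Sap30l gene in kb. Bars are 95% intervals from limma and all cross 0, from 2010001A14Rik at -0.42 to Hand1 at 0.10, whereas Sap30l (open diamond, no interval) stands at 0.35.

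The genes whose levels followed that of Sap30l most closely over the 6 libraries, by Pearson correlation of log2 RPKM, were Anp32b (r = 0.983), Zfp296 (0.982), Ssb (0.980), Ostc (0.972) and Eya2 (0.969). Anp32b, a nuclear acidic histone chaperone, stood at 276 to 296 RPKM in WT and at 304 to 330 RPKM in MommeD43, without overlap, and Ssb, the La RNA-binding protein, stood at 190 to 197 and 199 to 205 RPKM. An r of at least 0.9 was reached by 103 genes, 0.757% of the others tested. As Sap30l was picked for its difference between groups, genes that share that difference head this list by construction. After each group mean was subtracted, the closest were Cep131, Bicdl1, Ppp2r1a, Csrnp2 and Brms1, with r from 0.995 to 0.9998, and 513 genes (3.77%) reached 0.9. Among the 9 genes, those closest to Sap30l in this way were Hdac1 (0.869) and Ing1 (0.833), while Ing2 (-0.783) and Sap30 (-0.699) ran against it. These are descriptions over 6 libraries, and all genes of a library share its depth and its dissection.

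Brms1 is itself a Sin3 subunit on the list of further subunits. Brms1 was read at 26.0, 21.7 and 22.5 RPKM in WT and at 22.2, 24.9 and 28.2 RPKM in MommeD43. Its groups overlapped and its log2 difference was 0.10 (-0.14 to 0.33). Brms1 followed Sap30l within the groups, but the interval is too wide to say whether it shared a step between them.

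The wider pathway was described with 8 lists of genes for further Sin3 subunits, factors that recruit Sin3, other deacetylase complexes, other deacetylases and acetyltransferases, 78 autosomal genes in all. None passed an adjusted p of 0.05 in limma, and 2 of 78 (2.56%) had an unadjusted p under 0.05, beside 2.4% of all genes. Groups that did not overlap were found for 0 genes in the higher direction and 4 in the lower one, 5.13% of the 78, beside 3.53% and 3.55% of all autosomal genes tested. These counts are small and are no result about the lists. The median log2 difference over the 78 genes was -0.02, against 0.0025 over all genes tested.

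Among 12 autosomal further Sin3 subunits the median log2 difference was -0.03, and 4 of 12 were above 0. Kdm5a, a histone demethylase bound to the complex, had the smallest unadjusted p of the list, 0.045, with an adjusted p of 0.999 by limma. It was read at 8.81, 9.30 and 10.3 RPKM in WT and at 8.53, 7.97 and 8.32 RPKM in MommeD43, without overlap, a log2 difference of -0.19 (-0.38 to -0.0060). Tet1, which oxidises methylated cytosine, came next with a log2 difference of -0.20 (-0.52 to 0.12). The X-linked subunits Rbbp7, Morf4l2 and Ogt were left out of the test with the rest of the sex chromosomes, and stood at 161 ± 8.12, 147 ± 9.17 and 28.7 ± 2.87 RPKM in WT and at 168 ± 2.43, 144 ± 9.86 and 26.2 ± 3.00 RPKM in MommeD43 (SD, n = 3).

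The 18 factors that recruit Sin3 had a median log2 difference of -0.02, with Mxi1, a partner of MAX, at -0.15 (-0.44 to 0.15) and Foxk1, a forkhead factor, at -0.08 (-0.26 to 0.11). The 10 NuRD genes, which use the same deacetylases, had a median of 0.01. Gatad2b, read at 6.91, 6.90 and 7.54 RPKM in WT and at 6.45, 6.36 and 6.83 RPKM in MommeD43, did not overlap between groups, with a log2 difference of -0.12 (-0.30 to 0.06), and the remodeller Chd3 had a log2 difference of -0.12 (-0.32 to 0.07). The 7 CoREST genes had a median of -0.03, with the HMG-box subunit Hmg20b at 0.20 (-0.05 to 0.45) and the demethylase Kdm1a at -0.03 (-0.14 to 0.07). The 5 autosomal genes of NCoR and SMRT had a median of -0.07, with Tbl1xr1 at -0.16 (-0.42 to 0.10) and the scaffold Ncor1 at -0.08 (-0.23 to 0.07).

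Of the MiDAC complex, 2 genes were tested, and Trerf1, named after its values were seen, was read at 2.19, 2.56 and 2.13 RPKM in WT and at 1.80, 1.82 and 1.92 RPKM in MommeD43. Its log2 difference was -0.31 (-0.61 to -0.0036), with an unadjusted p of 0.048 and an adjusted p of 0.999 by limma. The 13 other deacetylases had a median log2 difference of 0.02 and the 11 acetyltransferases of -0.04. Kat6a, an acetyltransferase named for the same reason, was the remaining gene of the 78 whose groups did not overlap, at 14.4 to 15.04 RPKM in WT and 13.6 to 14.2 RPKM in MommeD43. The log2 difference of Sap30l, 0.35, lay outside the range of all 78 genes, -0.31 to 0.24, and above the 95th percentile of all autosomal genes tested, 0.32, a position that its choice on this contrast fixes in part.

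**Figure D5:**
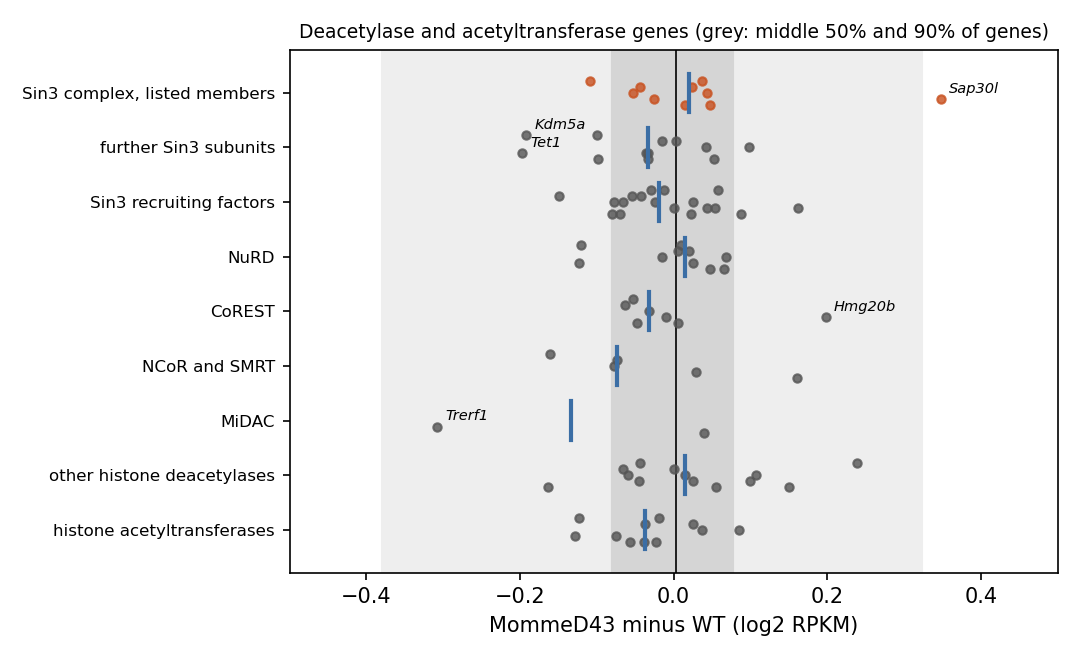
Difference between MommeD43 and WT (log2 RPKM) of each autosomal gene in the Sin3 list (orange) and in 8 lists of related genes (grey points), with list medians as blue lines. Grey bands hold the middle 50% and 90% of all autosomal genes tested, -0.08 to 0.08 and -0.38 to 0.32, and Sap30l at 0.35 lies beyond the outer band.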

How the data were processed

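RNA from the tailbud of 6 mouse embryos was sequenced after preparation with a stranded polyA kit. As the study's methods state, the authors removed adapters with Trim Galore 0.4.4, and reads were mapped with HISAT2 2.0.5 to GRCm38.p6 and quantified per gene in SeqMonk. The deposited values are log2 RPKM, made by the authors from the reads of a gene, its exon length and the library total. The authors' mean column of each group was checked against its libraries and not used, and no value column was left unassigned.

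Of 35591 rows, 35555 matched GENCODE M21, whose merged exon lengths were used to recover reads (98.8% of 63535 values within 0.02 of a whole number). Genes without a read were taken to sit at the value of 0.9 reads, and library totals were inferred from that level. Genes were kept at 10 reads at median depth in at least 3 libraries and 15 reads in all, which left 13617 autosomal genes. Groups, sexes and replicate numbers came from the labels. The labels name a separate embryo for each library. Differences are MommeD43 minus WT on the log2 RPKM scale without a pseudocount. The two-sided test was limma 3.58.1 in R 4.3.3, allowing for a mean-variance trend and adjusted by Benjamini-Hochberg over all autosomal genes, and the code was tested on simulated data. The difference between sexes was tested in the same way, giving every combination of sex and genotype a coefficient. Log2 ratios within paralogue pairs were tested by an exact permutation test. Counting intervals (exact, 95%) were made from the recovered reads and cover counting error, not differences between embryos.

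Named were the 10 genes, list genes past the adjusted threshold or else the 2 with the smallest unadjusted p in each Sin3, NuRD, CoREST and NCoR list, tested genes within 300 kb of Sap30l, the 5 genes most correlated with Sap30l before and after subtracting group means, and Smchd1. The genes, lists and tests were chosen with earlier results of these data known. Alternatives were other scalings, pseudocounts, filters, covariates and models, females alone, and each library left out. Python 3.11.15, pandas 2.3.3 and scipy 1.17.1 were used otherwise.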

Additional observations from a re-analysis of the deposited data

Results flagged for a closer look

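The genotype difference itself differed between the sexes for 37 of 13617 autosomal genes at an adjusted p of 0.05 (limma), a test with 1 male in each group. None of the 9 Sin3 complex genes other than Sap30l was among the 37. Sap30l, picked on these libraries, is not counted. Without a mean-variance trend the count was 0.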

How the results depend on the processing

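Of 17 alternatives, none called any of the 9 Sin3 complex genes other than Sap30l, or a gene of the 8 pathway lists. The smallest adjusted p of the 9 genes was 0.598 (limma, females alone). Sap30l stayed between 0.29 and 0.45, a direction that its choice fixes. It was 0.45 in the females alone, where 10 autosomal genes were called and 6 of the 9 genes did not overlap (42.0% of all genes did not). Leaving out 1 library gave 0 to 4 such genes of the 9. Fewer libraries are left in these settings, which makes a gap between groups easier to reach. The number of autosomal genes whose difference depended on sex was 111 with every gene with a read, 121 with voom on recovered reads and 0 without a mean-variance trend (1303 at an unadjusted p under 0.05); the cause was not tested. Small differences changed sign: Sap30 was -0.0042 after quantile normalization and -0.079 in the females alone. Over fits leaving out 1 library, Sap30 ran from -0.0701 to 0.1035, Sin3b from -0.0095 to 0.0712, Hdac2 from -0.0609 to 0.0029 and Ing2 from -0.108 to 0.0358. Sap30l and Ing2 rest on as few as 196 and 296 reads in a library. The study describes its replicates as pairs matched for somites. The deviations of same-numbered embryos from their group means correlated at -0.026, 0.167 and -0.173. Differently numbered embryos gave like values, from -0.189 to 0.178. Deviations from a mean of few libraries depend on each other, so these values cannot show whether the numbers pair the embryos. The main test used no pairs, although both embryos numbered 1 are males of the same mother. With the replicate block Sap30l was 0.35, 0 autosomal genes were called and 307 had an unadjusted p under 0.05.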
